A study of Sus scrofa with 24 samples.

Results

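The genes described here are the CD antigens, the cell surface molecules that carry a cluster of differentiation number, and the major histocompatibility complex (MHC) genes of the pig, the swine leukocyte antigens (SLA). They were read in pieces of porcine aortic valve leaflet on an Affymetrix porcine array. A probe set, the group of short probes whose signals are summarised into 1 value, was taken when the platform annotation gave it a single gene symbol that started with CD and a digit or with SLA-, or was B2M, TAP1 or TAP2. The rule used no measured values, but it was chosen with earlier results of these data known. It gave 98 of the 24123 probe sets of the array, for 56 gene symbols. Of the 56 symbols 23 had more than 1 probe set, so the 98 are not independent measurements; these are lettered here by falling mean over all arrays, from A on. TAP2 and the well known antigens CD36, CD44 and CD68 had no probe set under these symbols. Values are log2 units, in which a difference of 1 is a doubling of the array signal.

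MHC class I molecules sit on nearly all nucleated cells and show peptides from inside the cell to CD8 T cells. Their heavy chain pairs with the light chain beta 2 microglobulin (B2M), and the TAP transporter carries the peptides into the endoplasmic reticulum, where the complex is loaded. MHC class II molecules are made mainly by macrophages, dendritic cells and B cells, are chaperoned by the invariant chain CD74, and show peptides from taken-up material to CD4 T cells. The CD antigens include receptors and ligands of lymphocytes, scavenger receptors of myeloid cells, costimulatory ligands, inhibitors of complement and tetraspanins, which organise other proteins in membranes. An aortic valve leaflet consists of fibroblast-like interstitial cells under a layer of endothelium, with resident macrophages and dendritic cells.

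The valves were from domestic pigs aged 12 to 24 months, and rectangles of 15 by 10 mm from the centre of the cusps were cultured for 24 h. There were 4 groups of 6 pieces, each piece on an array of its own: cyclic stretch with 5HT (serotonin) plus Fluox, cyclic stretch without agents, static culture with 5HT plus Fluox, and static culture without agents. Stretched pieces had loops of suture at their ends and hung in a tensile bioreactor, static pieces were incubated in medium, and loops are described for the stretched groups alone, so mounting goes with stretch. All groups shared the same serum-containing medium, and the doses of the agents, called agents below, were not given in the sources used here. Pieces were allotted to the groups at random, and which arrays came from the same animal was not given, so p-values measure the spread between these samples. The labels call the arrays biological replicates, and precision is limited by their number, 6 in a group.

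The RNA of stretched pieces differed from that of static pieces in a measure of its intactness. The log2 difference between the 3′ and 5′ control probe sets of GAPDH and EF1A, which grows as RNA is shorter, was 2.64 ± 1.07 in stretched pieces with agents, 2.09 ± 0.71 in stretched pieces, 0.82 ± 0.11 in static pieces with agents and 0.77 ± 0.14 in static pieces (mean ± SD, n = 6 each). All 12 stretched arrays, from 0.98 upwards, lay above all 12 static arrays, which reached 0.97, and 3 stretched arrays stood apart at 3.06 (stretched replicate 6), 4.66 (stretched replicate 5 with agents) and 2.98 (stretched replicate 6 with agents), called the wide arrays below. Between arrays of a group the correlation over all probe sets was lowest among stretched pieces, at r = 0.85 for their least alike pair. This difference and stretch therefore cannot be told apart in full, and calls of the members described below that were lost with it as a covariate are named beside the results. The tissue label fits its markers: the interstitial genes VIM and LUM were bright in all groups (group means of 11.94 and 10.45 or more), and the 7 cardiac muscle probe sets had group means of at most 3.48.

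Stretch moved many of these genes in both directions, and the agents moved none past the threshold. In a limma fit of all 23999 probe sets other than controls, called at a Benjamini-Hochberg adjusted p under 0.05, 47 of the 98 member probe sets differed between stretched and static pieces without agents, 23 of them higher and 24 lower. That is 48% of the members, against 52.5% of all probe sets tested (29.4% higher and 23.1% lower). With agents 38 were called, 18 higher and 20 lower, or 38.8%, against 52.2% of all probe sets (28.3% higher and 23.9% lower). The members were thus not called more often than other probe sets. These shares are the background of the counts by gene group below. Their median change was -0.07 without agents and 0.06 with agents, against 0.08 and 0.07 over all probe sets.

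Much of the set gave little signal. Of the 98 probe sets, 38 had a mean under 4 in every group, and 51 had a mean of at least 5 in some group. Where the group with more signal averaged 5 or above, 29 of 51 were called without agents (11 higher, 18 lower), against 60.1% of such probe sets on the array (23.9% higher and 36.1% lower), and 30 of 51 with agents (11 higher, 19 lower), against 66.4% (27.2% higher and 39.1% lower). The calls of dim probe sets were nearly all small rises, 12 higher and 1 lower without agents, with sizes of at most 0.92. Centring the arrays by their brighter probe sets moved the median of all probe sets to 0.30 without agents and 0.29 with agents, and turned the split of members to 38 higher and 20 lower without agents and 46 higher and 15 lower with agents. With RNA intactness (the 3′ to 5′ measure) as a covariate, 21 members were called without agents (8 higher, 13 lower) and 9 with agents (8 higher, 1 lower). Without the 3 arrays that stood apart the counts were 42 and 36. How many of all probe sets were called under these alternative settings was not counted.

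Complete separation of the groups was less frequent. In 7 probe sets every stretched array lay above every static array without agents, and in 10 every one lay below, against 12.2% and 8.36% of all probe sets. With agents there were 19 and 10 such probe sets, against 23.7% and 18.1% of all probe sets. The comparisons with and without agents share no arrays. Among the members 14 were called higher in both (14.3%), 15 lower in both (15.3%) and 0 in opposite directions. A further 18 were called without agents only, 9 with agents only and 42 in neither. Of all probe sets 9163, or 38.2%, were called in both in the same direction, a larger share than among the members. The changes had the same sign in 79 of 98 members, and in 21378 of the 23999 probe sets tested. Across the 98 members the changes correlated at r = 0.80, and across all probe sets at r = 0.90. Probe sets of a gene are not independent points in these correlations.

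**Figure D1:**
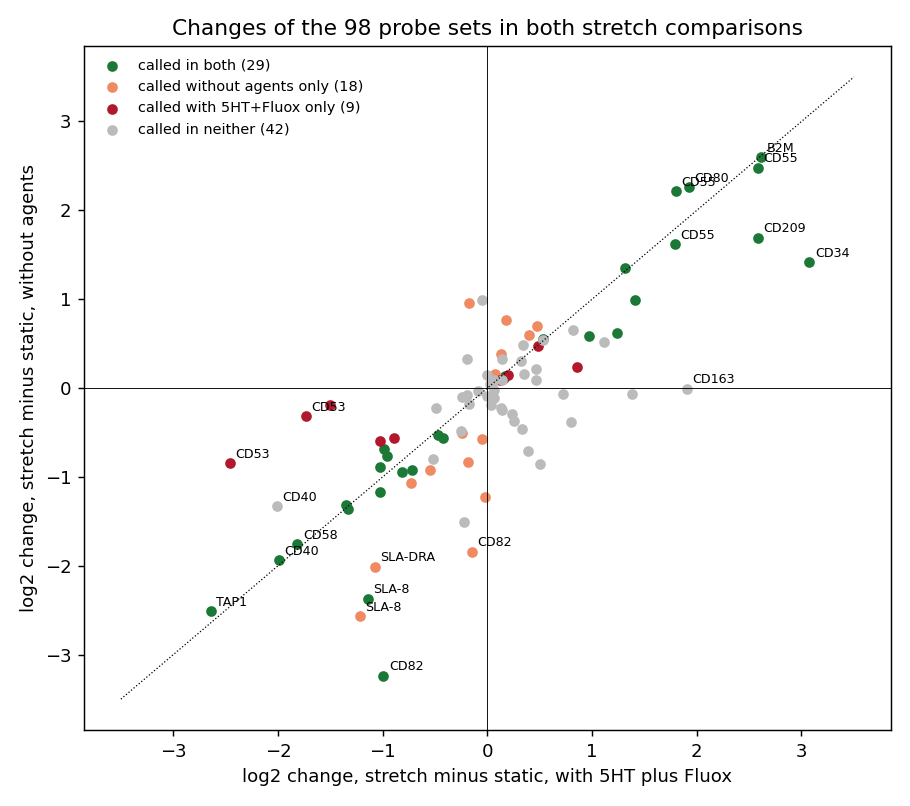
Log2 change of each of the 98 member probe sets between stretched and static pieces, with 5HT plus Fluox on the horizontal axis and without agents on the vertical axis. Each point is a probe set, coloured by whether limma called it in both comparisons (29), in 1 of them (18 without agents, 9 with agents) or in neither (42), symbols stand beside changes over 1.7 in size, and the dotted line marks equal changes. TAP1, SLA-8, CD82, CD40 and CD58 lie at the lower left, and CD55, CD80, CD209, CD34 and a B2M probe set at the upper right.

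TAP1, which encodes a subunit of the peptide transporter, and the class I genes SLA-7 and SLA-3 were lower in stretched pieces in both comparisons, and SLA-8 and SLA-2 were lower without agents. Of the 19 class I and peptide loading probe sets, 10 fell and 4 rose without agents, and 7 fell and 2 rose with agents. Of all probe sets 23.1% and 23.9% were called lower, and of those with a mean of 5 or above in the higher group 36.1% and 39.1%. Their median change was -0.50 without agents and -0.25 with agents. All 6 rises were of B2M probe sets, which are described after the heavy chains. In bulk tissue a lower value can mean fewer cells that make the RNA or less RNA per cell, and these cannot be told apart here.

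TAP1 (probe set A) had log2 values of 7.18 to 10.16 (median 8.42) in stretched pieces with agents, against 10.08 to 12.68 (median 11.302) in static pieces with agents. Without agents the values were 7.08 to 11.11 (median 9.40) in stretched pieces, against 11.02 to 12.42 (median 11.50) in static pieces. In each comparison 5 of the 6 stretched arrays lay below all static arrays; stretched replicate 4 without agents and stretched replicate 1 with agents reached into the static range. TAP1 was 6.23-fold lower with stretch in the presence of agents, a change of -2.64 (SE 0.60, adjusted p = 0.00142), and 5.70-fold lower without agents, a change of -2.51 (SE 0.60, adjusted p = 0.00242). With RNA intactness as a covariate neither call held (-1.15, adjusted p = 0.399 with agents and -1.43, adjusted p = 0.143 without). The other TAP1 probe sets, TAP1 probe set C and TAP1 probe set B, stayed under 4 in all 24 arrays and were not called.

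SLA-8, a nonclassical class I gene, was read by a pair of probe sets that gave the same picture. SLA-8 probe set B had values of 5.36 to 8.25 (median 6.46) in stretched pieces, against 8.48 to 9.70 (median 9.13) in static pieces, and all 6 stretched arrays lay below all static ones. SLA-8 probe set A had 6.14 to 8.40 (median 7.23) in stretched pieces, against 8.85 to 10.24 (median 9.54) in static pieces, again without overlap. They fell by 2.57 (SE 0.53, adjusted p = 7.67e-04) and by 2.37 (SE 0.43, adjusted p = 2.45e-04), or 5.92-fold and 5.17-fold, and both kept the call with the covariate (-2.63, adjusted p = 0.00978, and -2.59, adjusted p = 0.00226).

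With agents the SLA-8 differences were smaller and less certain. SLA-8 probe set B had values of 5.01 to 8.42 (median 8.11) in stretched pieces with agents, against 7.97 to 9.55 (median 9.10) in static pieces with agents, a change of -1.22 (SE 0.53, adjusted p = 0.0605) that missed the threshold. SLA-8 probe set A had 6.46 to 9.14 (median 8.34) in stretched pieces with agents, against 8.62 to 9.95 (median 9.64) in static pieces with agents, and was called at -1.14 (SE 0.43, adjusted p = 0.0333). Stretched replicate 2 with agents was the lowest array for both. The call of SLA-8 probe set A was lost without stretched replicate 2 or 4 with agents or static replicate 1, 2, 3 or 4 with agents (changes of -1.13 to -0.78 and adjusted p-values of 0.0501 to 0.0996), on centring (-0.92, adjusted p = 0.0588), on quantile normalization (-0.89, adjusted p = 0.112) and with the covariate (-1.44, adjusted p = 0.153). Whether the stretch difference of SLA-8 depended on the agents was tested as an interaction and not called (adjusted p = 0.723 and 0.667).

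SLA-7, a further nonclassical class I gene, and SLA-3, a classical one, were lower in both comparisons without overlap. SLA-7 had values of 7.09 to 7.87 (median 7.29) in stretched pieces with agents, against 8.20 to 9.26 (median 8.77) in static pieces with agents, and 7.05 to 8.52 (median 7.65) in stretched pieces, against 8.65 to 9.53 (median 9.01) in static pieces. It fell by 1.35 with agents (SE 0.23, adjusted p = 8.09e-05) and by 1.32 without agents (SE 0.23, adjusted p = 1.35e-04). SLA-3 had 11.92 to 12.96 (median 12.41) in stretched pieces with agents, against 12.98 to 13.56 (median 13.32) in static pieces with agents, and 12.13 to 13.03 (median 12.32) in stretched pieces, against 13.11 to 13.53 (median 13.40) in static pieces. All 6 stretched arrays were below all 6 static arrays for both genes in both comparisons. The SLA-3 changes were -0.81 (SE 0.18, adjusted p = 8.75e-04) with agents and -0.94 (SE 0.18, adjusted p = 2.98e-04) without. The covariate ended the calls with agents (-0.83, adjusted p = 0.0710 for SLA-7 and -0.57, adjusted p = 0.149 for SLA-3) and left those without agents.

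The classical gene SLA-2 changed less, and the nonclassical gene SLA-6 was not called. SLA-2 had 10.91 to 11.64 (median 11.22) in stretched pieces, against 11.51 to 11.92 (median 11.75) in static pieces, and fell by 0.50 (SE 0.13, adjusted p = 0.00341), with 5 of 6 stretched arrays below all static ones. Centring (-0.28, adjusted p = 0.0753) and the covariate (-0.44, adjusted p = 0.0600) each ended that call. With agents its change was -0.25 (SE 0.13, adjusted p = 0.106). SLA-6 (probe set A) had 10.22 to 11.13 (median 11.02) in stretched pieces with agents, 10.44 to 11.36 (median 11.001) in stretched pieces, 10.73 to 11.52 (median 10.89) in static pieces with agents and 10.901 to 11.18 (median 11.06) in static pieces, ranges that overlap throughout. Its changes were -0.20 (SE 0.19, adjusted p = 0.376) with agents and -0.08 (SE 0.19, adjusted p = 0.711) without, and both signs turned under quantile normalization, on centring, with the covariate and without the 3 wide arrays. The heavy chain genes are much alike in sequence. Of the 98 probe sets 15, SLA-2, SLA-3 and SLA-8 probe set A among them, have IDs ending in _a_at, _s_at or _x_at. These endings mark probes that may bind more than 1 transcript. With _a_at, as for SLA-3, these are transcripts of the same gene. With _s_at (SLA-8 probe set A) and _x_at (SLA-2) they can be of different genes. Given this and the likeness in sequence, the division of signal between SLA genes is uncertain.

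**Figure D2:**
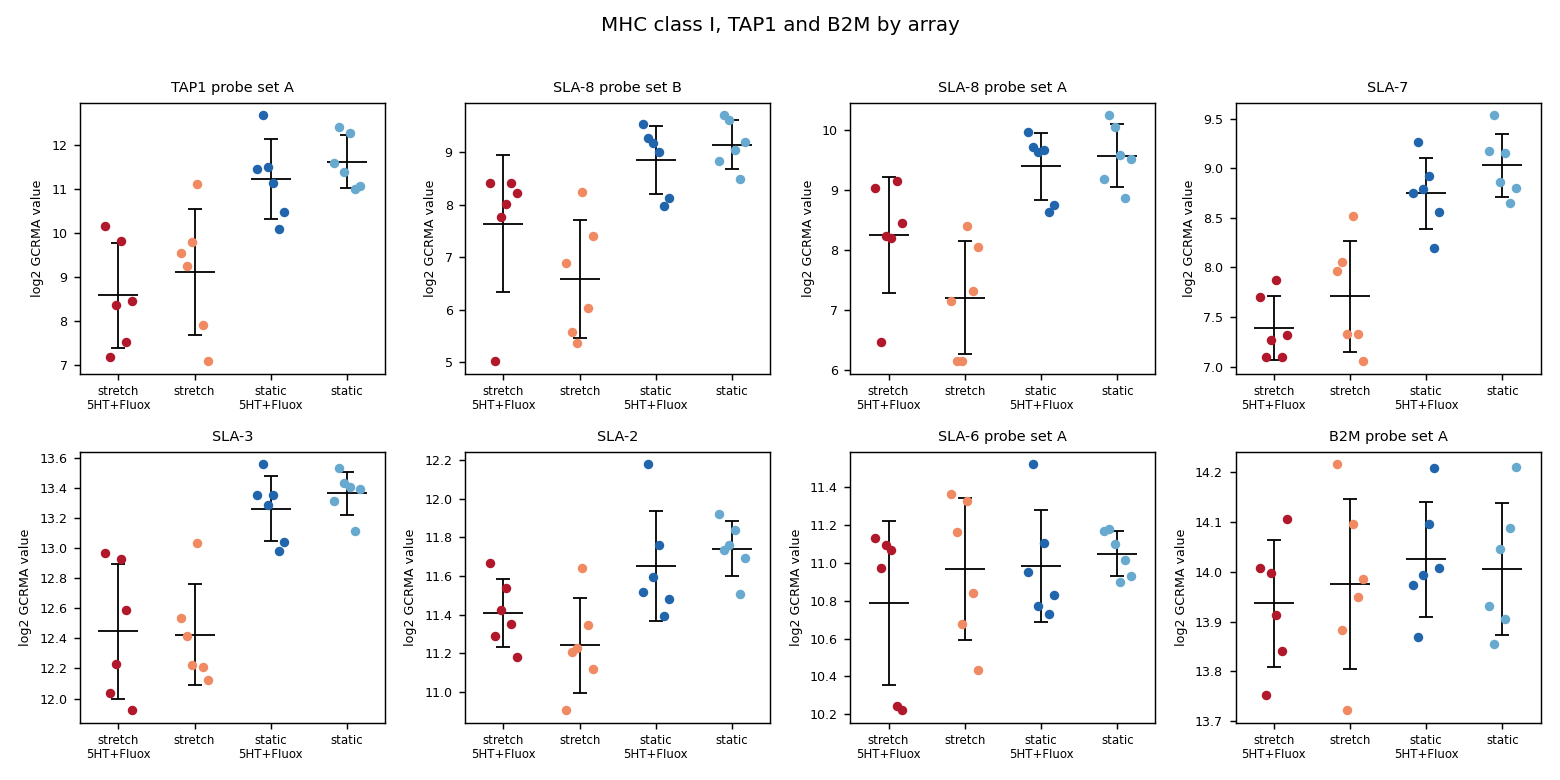
Log2 value of TAP1, SLA-8 (2 probe sets), SLA-7, SLA-3, SLA-2, SLA-6 and the brightest B2M probe set in each array, by group; points are arrays, long bars the means of 6 and error bars 1 SD, and each panel has its own vertical scale. SLA-7 and SLA-3 are lower in every stretched array than in every static array at the same agent status, SLA-6 and B2M overlap in all groups.

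B2M, the light chain that all class I molecules share, had 9 probe sets under its symbol, and they did not tell 1 story. The brightest, probe set A, had 13.75 to 14.11 (median 13.96) in stretched pieces with agents, 13.72 to 14.22 (median 13.97) in stretched pieces, 13.87 to 14.21 (median 14.0002) in static pieces with agents and 13.86 to 14.21 (median 13.99) in static pieces. Its changes were -0.09 (SE 0.08, adjusted p = 0.371) with agents and -0.03 (SE 0.08, adjusted p = 0.757) without. Values near 14 lie close to the top of the array's range of 15.5, where differences can be compressed. Whether that bears on probe set A was not tested, and B2M probe set B, at 13.62 to 14.08 in static pieces, was called lower in stretched pieces.

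The next brightest probe sets were lower in stretched pieces. B2M probe set B had 12.22 to 13.14 (median 12.78) in stretched pieces with agents, against 13.49 to 14.15 (median 13.84) in static pieces with agents, and 12.39 to 13.68 (median 12.99) in stretched pieces, against 13.62 to 14.08 (median 13.96) in static pieces. It fell by 1.03 with agents, without overlap (SE 0.19, adjusted p = 2.68e-04), and by 0.89 without agents (SE 0.19, adjusted p = 0.00110). B2M probe set C fell by 0.48 with agents (SE 0.15, adjusted p = 0.0133) and by 0.53 without (SE 0.15, adjusted p = 0.00804), and lost both calls on centring (-0.26, adjusted p = 0.144, and -0.30, adjusted p = 0.0935). With the covariate none of these 4 calls held, at adjusted p-values of 0.124 to 0.608.

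A further pair of B2M probe sets was higher in stretched pieces. B2M probe set F had 7.89 to 8.87 (median 8.19) in stretched pieces with agents, against 5.28 to 6.70 (median 5.50) in static pieces with agents, and 6.64 to 8.67 (median 8.36) in stretched pieces, against 4.86 to 6.08 (median 5.60) in static pieces. No stretched array overlapped a static one in either comparison. It rose 6.12-fold with agents, a change of 2.61 (SE 0.32, adjusted p = 2.12e-06), and 6.05-fold without agents, a change of 2.60 (SE 0.32, adjusted p = 2.89e-06). It kept both calls with the covariate (1.69, adjusted p = 0.00515 with agents and 1.93, adjusted p = 0.000347 without). B2M probe set E rose by 1.31 with agents (SE 0.31, adjusted p = 0.00187) and by 1.35 without (SE 0.31, adjusted p = 0.00176), and lost both calls with the covariate (0.72, adjusted p = 0.315, and 0.92, adjusted p = 0.0858).

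The other B2M probe sets were dimmer or less stable. B2M probe set G fell by 0.72 with agents (SE 0.17, adjusted p = 0.00139) and by 0.93 without (SE 0.17, adjusted p = 1.93e-04), at group means between 3.65 and 4.66. With the covariate the call with agents was lost (-0.58, adjusted p = 0.127). B2M probe set H fell by 0.57 without agents only (SE 0.22, adjusted p = 0.0337), a call that was lost without stretched replicate 4 or 5 or static replicate 1 or 2 (changes of -0.56 to -0.39 and adjusted p-values of 0.0570 to 0.0978). That call was also lost on centring (-0.35, adjusted p = 0.150), with array weights (-0.28, adjusted p = 0.163) and in a fit of only the groups compared (adjusted p = 0.103). B2M probe set D rose by 0.96 without agents (SE 0.38, adjusted p = 0.0401), which was lost without stretched replicate 1, 2 or 3 or static replicate 2, 3 or 6 (changes of 0.69 to 0.97 and adjusted p-values of 0.0598 to 0.103). The call was also lost in a fit of only the groups compared (adjusted p = 0.121) and with the covariate (1.05, adjusted p = 0.136). Its change with agents was -0.18 (SE 0.38, adjusted p = 0.701). B2M probe set I rose by 0.76 without agents (SE 0.14, adjusted p = 2.07e-04) at group means of at most 3.40. All 9 carry the same gene annotation, no probe sequences were at hand to tell them apart, and B2M was the sole symbol with calls in both directions among the 23 symbols with several probe sets, in each comparison.

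**Figure D3:**
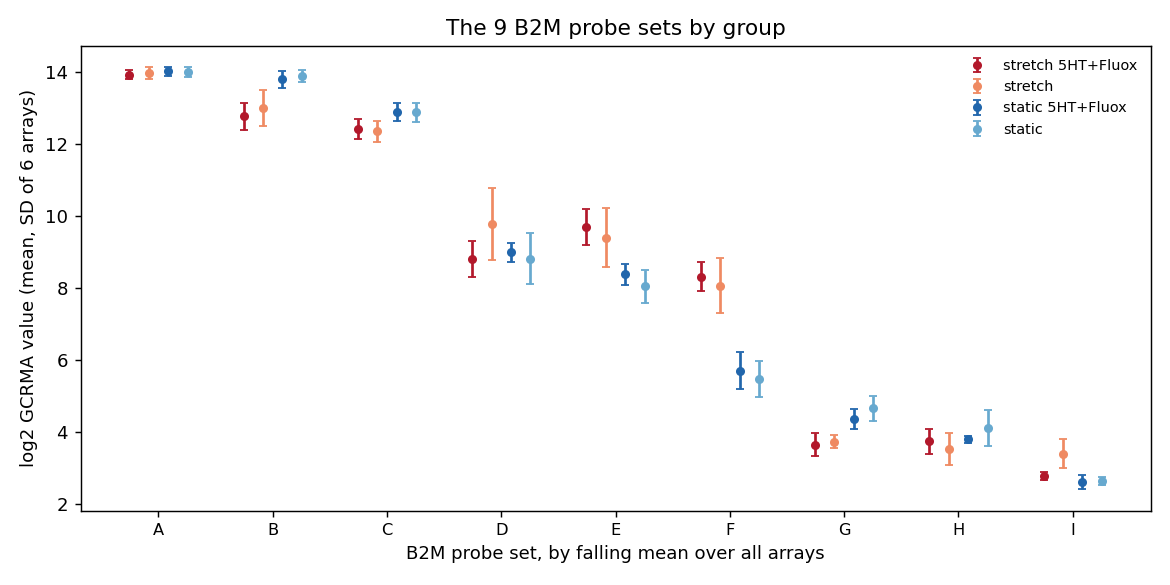
Mean log2 value of the 9 probe sets annotated to B2M in each group, with error bars of 1 SD of 6 arrays, ordered by overall mean from left to right. The brightest probe set is level across the groups, the next 2 are lower in both stretched groups, and probe sets E and F are higher in both stretched groups.

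Genes of antigen processing that are not members were also mostly lower in stretched pieces. Their list was chosen with earlier results of these data known, so its counts are not independent support for the class I falls. A list of 29 such genes, for peptide loading, the immunoproteasome, class II proteases and the interferon signalling that induces MHC genes, had 31 probe sets for 19 genes. Of these 21 fell and 2 rose without agents (median change -0.69), and 25 fell and 1 rose with agents (median -1.10), against the shares of all probe sets given above. By array, the mean over the list was 7.84 to 8.82 (median 8.43) in stretched pieces with agents, 7.97 to 9.39 (9.14) in stretched pieces, 9.49 to 10.12 (9.59) in static pieces with agents and 9.40 to 10.13 (9.80) in static pieces. No stretched array with agents reached a static one.

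The 4 genes of smallest p in the list without agents were JAK1, a kinase of interferon receptors, PSME1, a proteasome activator subunit, TAPBP (tapasin), which bridges TAP and class I chains, and PDIA3, a disulfide isomerase of the loading complex. TAPBP changed by -2.29 (SE 0.57, adjusted p = 0.00272) with agents and -3.16 (SE 0.57, adjusted p = 2.13e-04) without. PSME1 changed by -2.19 (SE 0.45, adjusted p = 6.34e-04) with agents and -2.60 (SE 0.45, adjusted p = 1.53e-04) without. JAK1 changed by -1.04 (SE 0.15, adjusted p = 1.98e-05) with agents and -0.89 (SE 0.15, adjusted p = 1.27e-04) without. PDIA3 changed by -0.74 (SE 0.13, adjusted p = 9.46e-05) with agents and -0.61 (SE 0.13, adjusted p = 7.96e-04) without. All 4 fell in both comparisons, as TAP1 did. Of the JAK2 probe sets on the list, 1 rose in both comparisons, by 1.05 (SE 0.29, adjusted p = 0.00511) with agents and 0.94 (SE 0.29, adjusted p = 0.0112) without. The other JAK2 probe set was not called. The other rise in the list, without agents, was of a CANX probe set with group means of at most 4.15 (0.43, SE 0.17, adjusted p = 0.0413). With the covariate the calls of the 4 genes without agents held, and of those with agents JAK1 alone held.

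The class II genes varied more between pieces of a group than between groups. Of 11 class II and CD74 probe sets, 2 fell and 1 rose without agents, and 1 rose and 0 fell with agents. The 6 with a mean of at least 5 were CD74, SLA-DRA, SLA-DRB1, SLA-DQA1, SLA-DQB1 and SLA-DMA, and both rises were of dim SLA-DRB1 probe sets with group means of at most 2.35, and neither held with the covariate.

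SLA-DRA, the alpha chain of the DR molecule, had 4.98 to 8.96 (median 5.20) in stretched pieces, against 5.92 to 9.52 (median 8.06) in static pieces. Stretched replicate 4 stood alone at the top of its group at 8.96, above 5 of the 6 static arrays, and the other 5 stretched arrays lay below all static ones. It fell 4.03-fold, a change of -2.01 (SE 0.81, adjusted p = 0.0418). That call was lost without stretched replicate 1, 2, 3, 5 or 6 or static replicate 1, 2, 3 or 4 (changes of -2.02 to -1.68 and adjusted p-values of 0.0580 to 0.0997), on quantile normalization (-1.87, adjusted p = 0.0730), in a fit of only the groups compared (adjusted p = 0.0561), without the 3 wide arrays (-1.98, adjusted p = 0.0558) and with the covariate (-0.71, adjusted p = 0.586). With agents the values were 3.65 to 8.17 (median 6.58) in stretched pieces, against 5.68 to 9.12 (median 7.30) in static pieces, with a change of -1.08 (SE 0.81, adjusted p = 0.258).

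SLA-DMA, a chain of the molecule that loads class II with peptide, had 4.57 to 6.11 (median 5.28) in stretched pieces, against 5.34 to 7.43 (median 6.96) in static pieces, and fell by 1.23 (SE 0.44, adjusted p = 0.0256), with 4 of 6 stretched arrays below all static ones. The call was lost without static replicate 1, 2 or 4 (changes of -1.13 to -1.06 and adjusted p-values of 0.0502 to 0.0641) on quantile normalization (-1.06, adjusted p = 0.0511) and with array weights (-0.68, adjusted p = 0.252), and held with the covariate (-1.78, adjusted p = 0.0224). Its change with agents was -0.02 (SE 0.44, adjusted p = 0.969). SLA-DRB1 (probe set A), the DR beta chain, had 5.45 to 9.58 (median 6.59) in stretched pieces, against 7.59 to 9.44 (median 8.29) in static pieces, and a change of -1.51 (SE 0.64, adjusted p = 0.0534), which just missed the threshold. SLA-DQA1 and SLA-DQB1, the DQ chains, changed by -0.70 (SE 0.75, adjusted p = 0.419) and -0.86 (SE 0.70, adjusted p = 0.294) without agents and by 0.39 (SE 0.75, adjusted p = 0.665) and 0.50 (SE 0.70, adjusted p = 0.547) with agents. CD74 changed by -0.79 (SE 0.58, adjusted p = 0.240) without agents and -0.52 (SE 0.58, adjusted p = 0.446) with agents.

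What the class II genes shared was the array. After subtraction of group means, the 15 pairs of the 6 brighter probe sets correlated at r = 0.35 to 0.96 across the 24 arrays (median 0.88), against a median of 0.58 over the 21 pairs of 7 class I and TAP1 probe sets. These are descriptions of arrays that share tissue and RNA quality. Stretched replicate 1 with agents was the highest of its group in 5 of the 6 probe sets, stretched replicate 4 in 5, static replicate 2 with agents in 6 and static replicate 2 in 5. Stretched replicate 1 without agents was the lowest in 6 of 6. Static replicate 5 was the lowest in 5 of 6 with agents and in 5 of 6 without. The mean over the 6 probe sets was 5.79 to 8.99 in stretched pieces with agents, 5.70 to 9.01 in stretched pieces, 6.44 to 9.09 in static pieces with agents and 6.82 to 9.23 in static pieces, ranges that overlap.

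The spread of these genes exceeded that of the array at large. The median SD of the 6 probe sets was 1.40 in stretched pieces with agents, 1.47 in stretched pieces, 1.01 in static pieces with agents and 0.89 in static pieces. The median SD of all probe sets with a mean of at least 5 was 0.52, 0.74, 0.29 and 0.39 in the same groups. For the 6 class I SLA probe sets with such a mean, TAP1 not among them, it was 0.44, 0.47, 0.33 and 0.23. In the assembly Sscrofa11.1 the SLA genes with member probe sets lie in the order SLA-2, SLA-3, SLA-8, SLA-7, SLA-6, SLA-DRA, SLA-DRB1, SLA-DQA1, SLA-DQB1, TAP1, SLA-DMB, SLA-DMA and SLA-DOA, with other genes between. TAP1, which fell in both comparisons, thus lies among class II genes that were mostly not called.

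**Figure D4:**
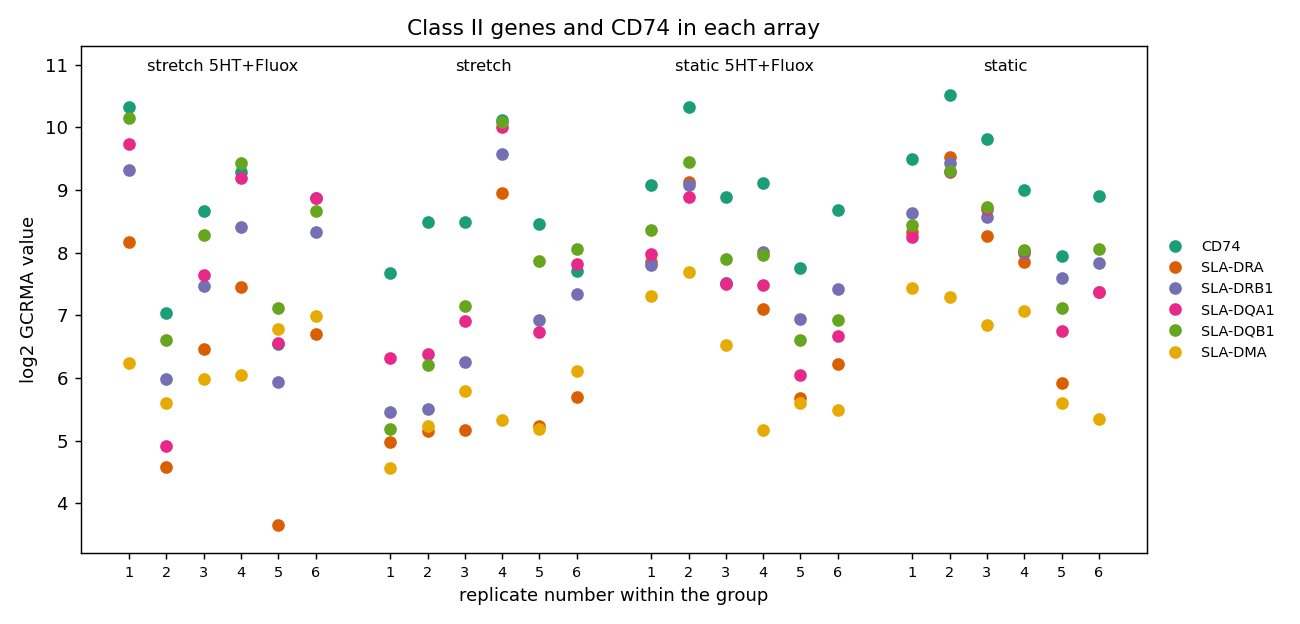
Log2 value of CD74 and 5 class II genes in each of the 24 arrays, with the replicate number of each array on the horizontal axis. Points in 1 column are from the same array: those of stretched replicate 4, stretched replicate 1 with agents and static replicate 2 with and without agents lie high for most of the genes, and those of stretched replicate 1 lie low for all 6.

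The inhibitors of complement went different ways: CD55 and CD59 were higher in stretched pieces and CD46 lower. CD55 (decay accelerating factor) takes apart the convertases of complement, CD46 is a cofactor for cutting C3b and C4b, and CD59 blocks the membrane attack complex. All 5 CD55 probe sets rose in both comparisons. CD55 probe set B had 5.73 to 7.53 (median 6.47) in stretched pieces with agents, against 3.13 to 4.38 (median 4.12) in static pieces with agents, and 4.32 to 7.69 (median 6.37) in stretched pieces, against 2.67 to 4.58 (median 3.70) in static pieces. The groups did not overlap with agents, and without agents stretched replicate 1, at 4.32, was the sole stretched array within the static range.

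It rose 5.99-fold with agents, a change of 2.58 (SE 0.50, adjusted p = 3.16e-04), and 5.57-fold without agents, a change of 2.48 (SE 0.50, adjusted p = 5.66e-04). CD55 probe set A rose by 1.80 with agents (SE 0.47, adjusted p = 0.00384) and by 2.22 without (SE 0.47, adjusted p = 9.32e-04). CD55 probe set C rose by 1.79 with agents (SE 0.45, adjusted p = 0.00306) and by 1.62 without (SE 0.45, adjusted p = 0.00675). The dimmer CD55 probe set D and CD55 probe set E rose by 0.53 and 0.97 with agents (adjusted p = 0.00685 and 0.00110) and by 0.56 and 0.58 without (adjusted p = 0.00537 and 0.0297). No CD55 call held with the covariate, for CD55 probe set B at 1.27, adjusted p = 0.209 with agents and 1.53, adjusted p = 0.0530 without; for CD55 probe set E the call without agents was also lost without stretched replicate 5 or 6 (changes of 0.46 to 0.51 and adjusted p-values of 0.0698 to 0.0845).

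CD59 (CD59 probe set A) had 12.11 to 12.86 (median 12.61) in stretched pieces with agents, against 10.93 to 11.41 (median 11.12) in static pieces with agents, and 11.09 to 12.78 (median 11.95) in stretched pieces, against 10.14 to 11.43 (median 11.10) in static pieces. All 6 stretched arrays were above all static ones with agents and 4 of 6 without. It rose 2.67-fold with agents, a change of 1.41 (SE 0.27, adjusted p = 2.94e-04), and 1.98-fold without, a change of 0.99 (SE 0.27, adjusted p = 0.00572). The call with agents held with the covariate, and the one without agents did not (0.97, adjusted p = 0.0543), nor with array weights (0.52, adjusted p = 0.0958). The other, CD59 probe set B, was not called (changes of 0.82 (SE 0.42, adjusted p = 0.103) with agents and 0.66 (SE 0.42, adjusted p = 0.181) without).

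CD46 (CD46 probe set A) had 9.81 to 10.97 (median 10.60) in stretched pieces with agents, against 11.05 to 11.98 (median 11.40) in static pieces with agents, and 9.87 to 11.08 (median 10.66) in stretched pieces, against 11.20 to 11.71 (median 11.29) in static pieces. No stretched array overlapped the static ones in either comparison. It fell by 0.96 with agents (SE 0.22, adjusted p = 0.00155) and by 0.76 without (SE 0.22, adjusted p = 0.00873). CD46 probe set C fell by 0.89 with agents (SE 0.31, adjusted p = 0.0214), a call lost without stretched replicate 2 with agents (a change of -0.62 (adjusted p = 0.0630)), and changed by -0.56 (SE 0.31, adjusted p = 0.123) without. CD46 probe set B was not called (-0.18 (SE 0.16, adjusted p = 0.353) with agents, -0.18 (SE 0.16, adjusted p = 0.331) without), and its sign turned on quantile normalization and on centring. With the covariate no CD46 call held (-0.30, adjusted p = 0.547 with agents and -0.28, adjusted p = 0.388 without for CD46 probe set A).

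Among costimulatory molecules CD80 was higher and CD200 lower in both comparisons, and the direction of CD40 depended on the covariate. Of 10 such probe sets 2 rose and 3 fell with stretch both with and without agents; the rises were CD80 and CD40LG, the CD40 ligand of activated T cells, at group means of at most 2.16. CD40LG lost both calls with the covariate. CD80 (B7-1), a ligand of CD28 and CTLA4 on T cells, had 6.89 to 9.11 (median 7.78) in stretched pieces with agents, against 5.36 to 6.63 (median 5.63) in static pieces with agents, and 5.44 to 8.39 (median 7.65) in stretched pieces, against 3.72 to 6.21 (median 5.22) in static pieces (CD80 probe set A). With agents the groups did not overlap, and without agents 1 of 6 stretched arrays lay within the static range. CD80 rose 3.79-fold with agents, a change of 1.92 (SE 0.48, adjusted p = 0.00285), and 4.79-fold without, a change of 2.26 (SE 0.48, adjusted p = 9.59e-04). The covariate ended the call with agents (1.28, adjusted p = 0.256) and not that without (1.80, adjusted p = 0.0395). The other CD80 probe set had group means of at most 2.59 and was not called.

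CD86 (B7-2), the other B7 ligand of the same receptors, had 3.27 to 4.56 (median 3.56) in stretched pieces, against 3.59 to 6.23 (median 4.71) in static pieces, and fell by 1.07 (SE 0.37, adjusted p = 0.0203), with 3 of 6 stretched arrays below all static ones. That call was lost without static replicate 2 (-0.80, adjusted p = 0.0598), in a fit of only the groups compared (adjusted p = 0.0555) and with the covariate (-0.57, adjusted p = 0.354). With agents its change was -0.73 (SE 0.37, adjusted p = 0.0965). CD200, a ligand that restrains myeloid cells, had 5.31 to 6.29 (median 5.87) in stretched pieces with agents, against 5.92 to 7.38 (median 6.95) in static pieces with agents, and 4.85 to 6.56 (median 5.33) in stretched pieces, against 6.32 to 7.64 (median 6.58) in static pieces. It fell by 1.02 with agents (SE 0.29, adjusted p = 0.00596) and by 1.17 without (SE 0.29, adjusted p = 0.00266), with 3 and 5 of 6 stretched arrays below all static ones; with the covariate the call without agents held and that with agents did not (-1.13, adjusted p = 0.0837). CD83, a marker of mature dendritic cells, was not called; CD83 probe set A changed by 1.11 (SE 0.59, adjusted p = 0.112) with agents and 0.51 (SE 0.59, adjusted p = 0.452) without.

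CD40, a receptor of the tumour necrosis factor family on antigen-presenting cells and also on endothelium and fibroblasts, rested on a few arrays. CD40 probe set C had 2.37 to 6.85 (median 5.18) in stretched pieces with agents, against 5.42 to 7.75 (median 6.81) in static pieces with agents, and 2.46 to 7.98 (median 5.37) in stretched pieces, against 6.55 to 8.14 (median 7.48) in static pieces. The lowest values were 2.37 in stretched replicate 5 with agents and 2.46 in stretched replicate 6, which are among the 3 arrays with the widest 3′ to 5′ difference.

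Its changes were -1.99 (SE 0.76, adjusted p = 0.0334) with agents and -1.94 (SE 0.76, adjusted p = 0.0379) without. The call with agents was lost without stretched replicate 5 or 6 with agents or static replicate 1, 2 or 3 with agents (changes of -1.91 to -1.52 and adjusted p-values of 0.0598 to 0.0953), and without the 3 wide arrays together (-0.99, adjusted p = 0.152). The call without agents was lost without stretched replicate 3, 5 or 6 or static replicate 1, 2, 3 or 4 (changes of -1.93 to -1.35 and adjusted p-values of 0.0597 to 0.111). CD40 probe set A was called with agents only (-1.03 (SE 0.40, adjusted p = 0.0390), against -0.60 (SE 0.40, adjusted p = 0.208) without), lost without stretched replicate 5 or 6 with agents or static replicate 1, 2 or 3 with agents (changes of -0.9996 to -0.67 and adjusted p-values of 0.0640 to 0.116). CD40 probe set B had 2.22 to 8.85 (median 7.65) in stretched pieces with agents, against 8.08 to 9.19 (median 8.54) in static pieces with agents, and was not called (-2.01 (SE 0.84, adjusted p = 0.0507)). With the covariate all CD40 signs turned, and CD40 probe set B was then called higher with stretch (1.78, adjusted p = 0.0402 with agents and 1.42, adjusted p = 0.0462 without), so that no direction is given for CD40.

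**Figure D5:**
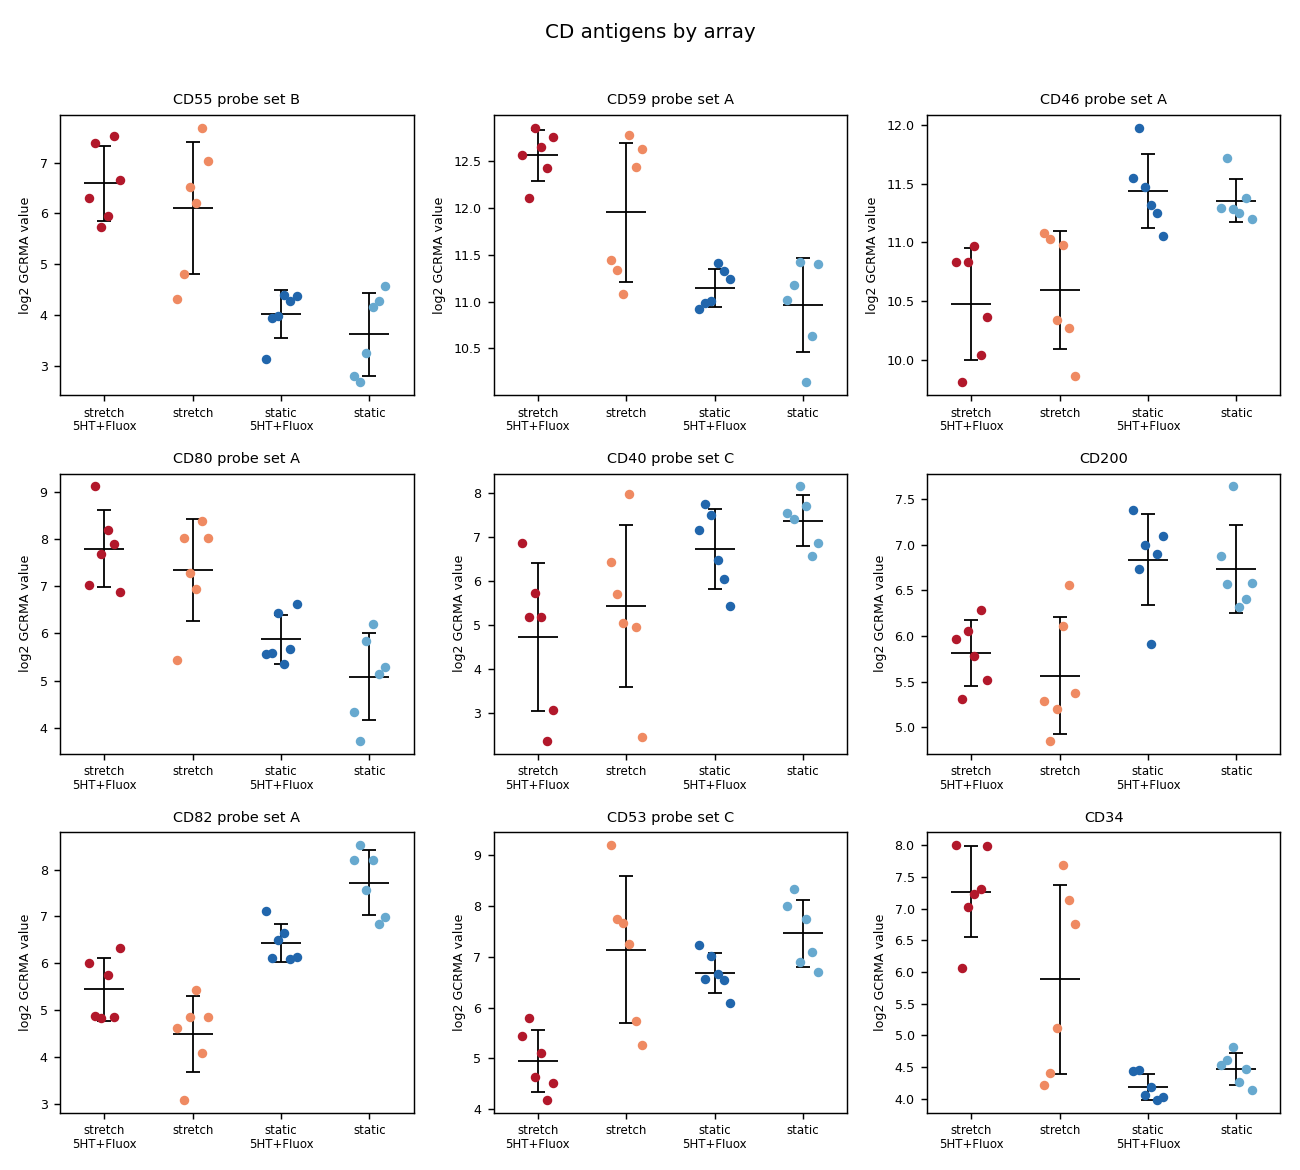
Log2 value of CD55, CD59, CD46, CD80, CD40, CD200, CD82, CD53 and CD34 in each array, by group; points are arrays, long bars the means of 6 and error bars 1 SD, and each panel has its own vertical scale. CD55, CD59, CD80 and CD34 are higher in stretched pieces, CD46, CD200 and CD82 lower, CD53 is called lower with agents and not without, and CD40 has single low stretched arrays.

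The tetraspanins held the largest fall among the members. Of 9 probe sets, 3 fell and 1 rose without agents, and 5 fell and 2 rose with agents. Among all probe sets with a mean of 5 or above in the higher group 36.1% and 39.1% were called lower. CD82, a tetraspanin known for restraining cell migration, had 3.08 to 5.43 (median 4.73) in stretched pieces, against 6.84 to 8.52 (median 7.88) in static pieces (CD82 probe set A). All 6 stretched arrays lay below all static ones, and the fall was 9.44-fold, a change of -3.24 (SE 0.37, adjusted p = 1.42e-06), which held with the covariate (-3.07, adjusted p = 0.000123). The dimmer CD82 probe set B had 2.37 to 3.21 (median 3.08) in stretched pieces, against 3.56 to 5.74 (median 4.93) in static pieces, a change of -1.84 (SE 0.28, adjusted p = 3.31e-05).

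With agents the CD82 difference was smaller, at 4.84 to 6.32 (median 5.31) in stretched pieces with agents, against 6.09 to 7.13 (median 6.31) in static pieces with agents, a change of -0.99 (SE 0.37, adjusted p = 0.0312) for CD82 probe set A and of -0.15 (SE 0.28, adjusted p = 0.655) for CD82 probe set B. The call of CD82 probe set A with agents was lost without stretched replicate 2, 3 or 5 with agents or static replicate 1 or 4 with agents (changes of -0.95 to -0.85 and adjusted p-values of 0.0561 to 0.0751). It was also lost on quantile normalization (-0.91, adjusted p = 0.0586), on centring (-0.77, adjusted p = 0.0564) and with the covariate (-0.76, adjusted p = 0.435). The static group with agents lay below the static group, and the stretched group with agents above the stretched group, by values that were not called and are given with the agents below. The interaction was 2.25 (SE 0.53, adjusted p = 0.540) and 1.69 (SE 0.39, adjusted p = 0.540).

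CD53, a tetraspanin of leukocytes, was called with agents only, in all 3 of its probe sets. CD53 probe set B had 4.86 to 8.42 (median 7.55) in stretched pieces with agents, against 9.09 to 9.78 (median 9.46) in static pieces with agents, without overlap, and 4.66 to 10.60 (median 9.89) in stretched pieces, against 9.09 to 10.19 (median 9.75) in static pieces, where 3 stretched arrays lay above and 2 below all static ones. CD53 probe set C had 4.18 to 5.80 (median 4.87) in stretched pieces with agents, against 6.09 to 7.23 (median 6.62) in static pieces with agents, again without overlap. For CD53 probe sets B, C and A the falls with agents were 2.46 (SE 0.80, adjusted p = 0.0151), 1.73 (SE 0.49, adjusted p = 0.00621) and 1.51 (SE 0.54, adjusted p = 0.0248), the last of which was lost without stretched replicate 3 or 5 with agents (changes of -1.30 to -1.25 and adjusted p-values of 0.0623 to 0.0638). None held with the covariate (-0.83, adjusted p = 0.717, -0.38, adjusted p = 0.781 and -0.83, adjusted p = 0.570). Without agents the changes were -0.84 (SE 0.80, adjusted p = 0.365), -0.32 (SE 0.49, adjusted p = 0.577) and -0.20 (SE 0.54, adjusted p = 0.761), and the interaction was not called for any of them (adjusted p = 0.816, 0.666 and 0.742).

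CD151, which partners laminin-binding integrins, had 8.86 to 9.77 (median 9.40) in stretched pieces with agents, against 7.96 to 8.35 (median 8.07) in static pieces with agents, without overlap, and 7.93 to 9.20 (median 8.96) in stretched pieces, against 7.61 to 8.42 (median 8.24) in static pieces. It rose by 1.24 with agents (SE 0.19, adjusted p = 2.98e-05) and by 0.62 without (SE 0.19, adjusted p = 0.0114), the smaller of which was lost with the covariate (0.36, adjusted p = 0.260). CD63, a tetraspanin of late endosomes and lysosomes, fell by 0.42 with agents (SE 0.10, adjusted p = 0.00229) and by 0.56 without (SE 0.10, adjusted p = 2.67e-04). The call with agents was lost on centring (-0.20, adjusted p = 0.0543) and with the covariate (-0.37, adjusted p = 0.122). CD81 rose by 0.86 with agents (SE 0.33, adjusted p = 0.0325), which was lost without stretched replicate 1, 3 or 4 with agents or static replicate 1, 3 or 5 with agents (changes of 0.70 to 0.84 and adjusted p-values of 0.0526 to 0.0780), and changed by 0.23 (SE 0.33, adjusted p = 0.538) without agents. With the covariate CD81 was called higher in both comparisons (1.94, adjusted p = 0.00112 with agents and 1.02, adjusted p = 0.0265 without). CD9 was bright and not called, at 0.33 (SE 0.25, adjusted p = 0.254) with agents and -0.46 (SE 0.25, adjusted p = 0.116) without.

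CD34 carried the largest rise among the members. This sialomucin marks endothelium, blood progenitors and some stromal fibroblasts. It had 6.06 to 7.999 (median 7.27) in stretched pieces with agents, against 3.98 to 4.45 (median 4.12) in static pieces with agents, a rise of 8.43-fold without overlap (change 3.08 (SE 0.47, adjusted p = 3.14e-05)), and it held with the covariate. Without agents it had 4.22 to 7.69 (median 5.94) in stretched pieces, against 4.13 to 4.82 (median 4.502) in static pieces. Stretched replicates 3, 4, 5 and 6 lay above all static arrays, and replicates 1 and 2 within their range. The rise without agents was 2.67-fold, a change of 1.42 (SE 0.47, adjusted p = 0.0181), and was lost without stretched replicate 5 (1.17, adjusted p = 0.0528), without the 3 wide arrays (1.24, adjusted p = 0.0509) and with the covariate (1.09, adjusted p = 0.203). The interaction was 1.66 (SE 0.67, adjusted p = 0.641).

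Several endothelial markers moved the other way. Of 23 probe sets for 13 of 15 endothelial genes, 11 fell and 1 rose without agents, and 8 fell and 0 rose with agents, against 23.1% and 23.9% of all probe sets called lower. Their median change was -0.43 without agents and -0.18 with agents, with array means of 3.03 to 3.33 in stretched pieces with agents, 3.05 to 3.30 in stretched pieces, 4.23 to 4.83 in static pieces with agents and 3.55 to 4.65 in static pieces. ECSCR, an endothelial surface protein, had group means of 2.89 in stretched pieces with agents, 3.25 in stretched pieces, 10.15 in static pieces with agents and 9.73 in static pieces, changes of -7.26 (SE 0.38, adjusted p = 4.85e-11) with agents and -6.47 (SE 0.38, adjusted p = 3.50e-10) without. CDH5, the cadherin of endothelial junctions, changed by -4.70 (SE 0.35, adjusted p = 4.36e-09) and -3.90 (SE 0.35, adjusted p = 5.60e-08), ENG by -2.43 (SE 0.23, adjusted p = 1.06e-07) and -3.06 (SE 0.23, adjusted p = 8.66e-09), and TEK by -3.70 (SE 0.44, adjusted p = 1.50e-06) and -3.52 (SE 0.44, adjusted p = 3.46e-06).

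Most interstitial fibroblast marker probe sets rose as CD34 did. Of 17 probe sets for 11 of 12 genes, 12 rose and 2 fell in each comparison, against 29.4% of all probe sets called higher without agents and 28.3% with agents, with array means of 8.32 to 8.65 in stretched pieces with agents, 7.63 to 8.53 in stretched pieces, 6.68 to 7.14 in static pieces with agents and 6.83 to 7.32 in static pieces. THY1 changed by 4.42 (SE 0.27, adjusted p = 3.64e-10) with agents and 3.76 (SE 0.27, adjusted p = 4.98e-09) without, and FBLN1 by 4.16 (SE 0.38, adjusted p = 5.99e-08) and 3.11 (SE 0.38, adjusted p = 2.90e-06). The 2 falls were of COL3A1 and PDGFRB. COL3A1 changed by -2.79 (SE 0.40, adjusted p = 1.42e-05) with agents and -3.04 (SE 0.40, adjusted p = 6.55e-06) without. PDGFRB changed by -0.65 (SE 0.27, adjusted p = 0.0484) with agents and -1.41 (SE 0.27, adjusted p = 3.57e-04) without. The brighter POSTN probe set was not called in either comparison. Of 6 smooth muscle and pericyte probe sets 3 rose with agents and 4 without. The part of these cell types in the CD antigen and MHC changes was not tested.

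CD58 and CD47, surface ligands of many cell types, were lower in both comparisons. CD58 (LFA-3), the ligand of CD2 on T cells, had 3.502 to 5.05 (median 4.71) in stretched pieces with agents, against 5.30 to 6.53 (median 6.45) in static pieces with agents, and 3.47 to 5.37 (median 4.56) in stretched pieces, against 5.57 to 6.83 (median 6.24) in static pieces, without overlap in either. It fell 3.52-fold with agents, a change of -1.81 (SE 0.35, adjusted p = 3.22e-04), and 3.38-fold without, a change of -1.75 (SE 0.35, adjusted p = 5.37e-04); the covariate ended the call with agents (-0.97, adjusted p = 0.182) and not that without (-1.14, adjusted p = 0.0461). CD47, which binds SIRPA on macrophages and restrains engulfment, was read by 3 probe sets. CD47 probe set A had 9.999 to 10.66 (median 10.58) in stretched pieces with agents, against 11.07 to 11.92 (median 11.50) in static pieces with agents, and 10.42 to 11.45 (median 10.82) in stretched pieces, against 11.24 to 11.85 (median 11.54) in static pieces.

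It fell by 0.99 with agents (SE 0.18, adjusted p = 1.38e-04) and by 0.68 without (SE 0.18, adjusted p = 0.00376). With the covariate the call with agents held, and that without agents did not (-0.63, adjusted p = 0.0532). CD47 probe set B fell by 1.33 and 1.36 (SE 0.40 each, adjusted p = 0.00963 and 0.00917), and lost both calls with the covariate (-0.31, adjusted p = 0.792, and -0.62, adjusted p = 0.327). CD47 probe set C fell by 0.83 without agents (SE 0.25, adjusted p = 0.0104) a call lost with array weights (-0.62, adjusted p = 0.0578), and changed by -0.18 (SE 0.25, adjusted p = 0.547) with agents. CD93, CD99 and CD164, further surface glycoproteins, were not called in any of their 6 probe sets. CD93 probe set A spread widely, with 3.19 to 7.83 (median 6.28) in stretched pieces with agents and 4.29 to 8.98 (median 8.16) in stretched pieces, against 5.30 to 6.84 (median 5.93) in static pieces with agents and 5.78 to 6.94 (median 6.16) in static pieces.

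Of the myeloid antigens only CD209 and a dim CD5L probe set were called. CD209 (DC-SIGN), a lectin of dendritic cells and macrophages, had 5.61 to 7.85 (median 6.71) in stretched pieces with agents, against 3.25 to 6.13 (median 3.85) in static pieces with agents, and 5 of 6 stretched arrays lay above all static ones. It rose 6.01-fold, a change of 2.59 (SE 0.68, adjusted p = 0.00405). Without agents it had 5.67 to 8.48 (median 7.05) in stretched pieces, against 3.09 to 7.97 (median 5.31) in static pieces, and rose by 1.69 (SE 0.68, adjusted p = 0.0430), a call lost without stretched replicate 2, 3, 4 or 6 or static replicate 3, 4, 5 or 6 (changes of 1.23 to 1.76 and adjusted p-values of 0.0537 to 0.114). The covariate ended both calls (2.42, adjusted p = 0.127 with agents and 1.57, adjusted p = 0.212 without).

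CD163, the scavenger receptor for haemoglobin on macrophages, had 5.13 to 7.01 (median 5.97) in stretched pieces with agents, against 2.36 to 5.94 (median 4.24) in static pieces with agents, and 2.91 to 7.13 (median 5.26) in stretched pieces, against 2.89 to 7.49 (median 4.82) in static pieces (CD163 probe set A). With agents 4 of 6 stretched arrays lay above all static ones, without agents the ranges overlap throughout, and the changes were 1.90 (SE 0.81, adjusted p = 0.0528) with agents and -0.01 (SE 0.81, adjusted p = 0.994) without. CD14, the co-receptor for bacterial lipopolysaccharide, changed by 0.80 (SE 0.46, adjusted p = 0.148) with agents and -0.38 (SE 0.46, adjusted p = 0.484) without (CD14 probe set A) and was not called. CD5L probe set B rose by 0.20 with agents (SE 0.07, adjusted p = 0.0188) at group means of at most 2.38. It lost the call with the covariate (0.11, adjusted p = 0.549).

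Other leukocyte markers fell or were not called where bright, and the rises among them were at low signal. Of 21 probe sets for 13 of 18 leukocyte and macrophage genes outside the set, 6 fell and 2 rose without agents, and 6 fell and 4 rose with agents. Of all probe sets 23.1% were called lower and 29.4% higher without agents, and 23.9% and 28.3% with agents. Array means over the list were 4.06 to 5.10 in stretched pieces with agents, 4.34 to 4.65 in stretched pieces, 4.62 to 5.24 in static pieces with agents and 4.77 to 6.10 in static pieces. ITGB2, the beta 2 integrin chain of leukocytes, changed by -2.46 (SE 0.34, adjusted p = 1.05e-05) with agents and -3.15 (SE 0.34, adjusted p = 6.51e-07) without, and SPI1, a transcription factor of myeloid cells, by -2.65 (SE 0.33, adjusted p = 3.04e-06) and -2.51 (SE 0.33, adjusted p = 7.28e-06). AIF1, a macrophage marker, changed by -1.34 (SE 0.41, adjusted p = 0.0102) and -2.21 (SE 0.41, adjusted p = 2.50e-04), and ITGAM, dim in all groups, by 0.17 (SE 0.05, adjusted p = 0.00605) and 0.21 (SE 0.05, adjusted p = 0.00203). The falls in this list were of probe sets with static group means of 5.34 or more. The rises were of ITGAM, PTPRC and LCP1 probe sets with group means of at most 4.03. With the covariate AIF1 and ITGAM lost the calls with agents. Their part in the member changes was not tested.

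Lymphocyte antigens gave almost no signal. All 14 T and NK cell probe sets, for CD2, CD3D, CD3E, CD3G, CD4, CD8A, CD8B, CD27, CD69 and CD247, had group means of at most 3.25, and of the 3 B cell probe sets CD180 alone passed 4, at up to 4.58. Of the T and NK cell probe sets 5 were called higher without agents and 1 with agents, by at most 0.39 without agents: CD8B by 0.39, CD4 by 0.11 and 0.11 in its 2 probe sets, CD27 by 0.11 and CD247 by 0.11. Of 4 T and B lymphocyte marker probe sets outside the set, 1 rose and 1 fell without agents and 1 fell with agents, and their array means ran from 2.43 to 3.55. Among them IL7R alone was brighter, with group means of 5.01 to 5.49, and it was not called. The CD1 genes of lipid presentation were equally dim, with CD1E called higher without agents (0.70 (SE 0.23, adjusted p = 0.0159)) and CD1.1 with agents (0.48 (SE 0.20, adjusted p = 0.0466)). None of these T cell, NK cell and CD1 calls held with the covariate.

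The agents called no member in either tissue state. In stretched tissue, 0 of 98 members were called by limma between stretched pieces with agents and stretched pieces, against 0.0583% of all probe sets, and 14 (14.3%) had an unadjusted p under 0.05, against 14.8% of all probe sets. With array weights 14 members were called, 6 higher and 8 lower, and without the 3 wide arrays 2 were. The share of all probe sets called under these alternatives was not counted, so these counts have no background. The 4 of smallest p were B2M, CD53, CD34 and CD151. B2M probe set I had 2.69 to 3.02 (median 2.73) in stretched pieces with agents, against 2.71 to 3.73 (median 3.59) in stretched pieces, a change of -0.62 (SE 0.14, adjusted p = 0.0778). CD53 (CD53 probe set C) had 4.18 to 5.80 (median 4.87) in stretched pieces with agents, against 5.26 to 9.19 (median 7.46) in stretched pieces, with 4 of 6 arrays with agents below all without, a change of -2.19 (SE 0.49, adjusted p = 0.0792). CD34 changed by 1.38 (SE 0.47, adjusted p = 0.175) and CD151 by 0.54 (SE 0.19, adjusted p = 0.184).

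In static tissue, 0 of 98 members were called by limma between static pieces with agents and static pieces, against 0.00417% of all probe sets, and 5 (5.1%) had an unadjusted p under 0.05, against 1.76% of all probe sets. The alternatives that were run also called 0, array weights among them, and leaving out single arrays called at most 1. CD82 led: CD82 probe set B had 2.97 to 3.89 (median 3.04) in static pieces with agents, against 3.56 to 5.74 (median 4.93) in static pieces, and CD82 probe set A had 6.09 to 7.13 (median 6.31) in static pieces with agents, against 6.84 to 8.52 (median 7.88) in static pieces. In each, 5 of 6 arrays with agents lay below all static arrays without. The changes were -1.61 (SE 0.28, adjusted p = 0.109) and -1.29 (SE 0.37, adjusted p = 1.000). CD83 probe set B and CD47 probe set C followed, at -0.35 (SE 0.14, adjusted p = 1.000) and -0.60 (SE 0.25, adjusted p = 1.000).

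No member was called for a stretch change that differed with the agents. The interaction called 0 of 98 members by limma, and 0% of all probe sets, with 7 members (7.14%) at an unadjusted p under 0.05, against 7.46% of all probe sets. Array weights called 9 members, 3 higher and 6 lower, and the share of all probe sets called with these weights was not counted. CD82 led here too, with interactions of 1.69 (SE 0.39) and 2.25 (SE 0.53), both at a limma adjusted p of 0.540. B2M probe set I and CD34 followed, at -0.59 (SE 0.19, adjusted p = 0.632) and 1.66 (SE 0.67, adjusted p = 0.641). A missed threshold does not show that stretch acted alike in both: the standard errors of interactions were larger than those of the single comparisons, for CD34 0.67 against 0.47.

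In the authors' deposited table, an analysis of variance of the same arrays, 51 members had an adjusted p under 0.05 without agents, 27 higher and 24 lower, and 42 with agents, 22 higher and 20 lower. By the authors' deposited table no member passed, 0 of 98, for the agents in either tissue state. All 47 and 38 members called by limma were also called there.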

How the data were processed

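Total RNA of 24 porcine aortic valve pieces was labelled (6 ug each) and hybridised to the Affymetrix porcine array. Per the submitters' processing notes, the deposited log2 values were made by the authors with GCRMA and Partek, whose versions were not given. The authors' deposited table holds p-values, adjusted p-values and signed fold changes (a score on a linear scale) from a two-way analysis of variance in Partek, and those fold changes match differences of group means to within 6.2e-05 on the log2 scale.

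Genes were named from the platform annotation, and all 98 member probe sets matched RefSeq's Sscrofa11.1 gene table, which was used for names and gene order only. The 124 control probe sets were left out of tests. In R 4.3.3, limma 3.58.1 fitted 4 group means to all 24 arrays and tested 5 contrasts on 23999 probe sets, two-sided, with empirical Bayes variances and Benjamini-Hochberg adjustment over all probe sets, called under 0.05. The fit was checked on simulated data. A mean under 4 in every group was called dim. GCRMA draws dim probe sets together, so small changes at low values are compressed.

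The rule for named members took, per stretch comparison, the 12 largest called rises and falls with a mean of 5 or above in the higher group, all MHC probe sets and CD74 and 12 further antigens, and, for the agents and the interaction, the 4 of smallest p; other members named, such as CD93, CD99 and the lymphocyte antigens, were picked with their values known. The members and gene lists were chosen with earlier results of these data known. Alternatives were quantile normalization, centring on brighter probe sets, leaving out dim probe sets, trended variances, array weights, RNA intactness (the 3′ to 5′ measure) as a covariate, a replicate block, fits of only the groups compared, 1 probe set per symbol and leaving out arrays. Replicate numbers were not taken to pair samples (the check is given with the alternatives). Hybridisation dates were not given in the sources used here, and no sequences are printed.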

Additional observations from a re-analysis of the deposited data

Results flagged for a closer look

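In 31 of 268 groups of 6 values of the probe sets described above, or 11.6%, 1 array stood apart from the rest: its gap to the nearest array, divided by the range of the group, was above Dixon's critical value for such groups. Chance alone gives about 1 in 20. Of the 31, 10 were among the 170 groups with a mean of at least 5, and 21 among dimmer ones. Letters mark the probe sets of a gene, from A on, by falling mean over all arrays. All values below are log2 values, and nothing was tested about why these arrays stood apart.

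Stretched replicate 1 with agents stood apart for SLA-DOA at 2.77, with the nearest array at 2.41. Stretched replicate 2 with agents stood apart for SLA-8 B at 5.01, with the nearest array at 7.76 and SLA-8 A at 6.46, with the nearest array at 8.19. Stretched replicate 3 with agents stood apart for CD47 A at 10.0, with the nearest array at 10.52. Stretched replicate 4 with agents stood apart for B2M I at 3.02, with the nearest array at 2.78. Stretched replicate 5 with agents stood apart for CD81 at 7.05, with the nearest array at 8.61 and SLA-DRB1 C at 2.20, with the nearest array at 2.05. Stretched replicate 6 with agents stood apart for CD14 B at 2.69, with the nearest array at 2.38. Stretched replicate 1 stood apart for CD47 C at 3.04, with the nearest array at 4.0, TAP1 C at 1.95, with the nearest array at 1.65 and CD82 B at 2.37, with the nearest array at 2.92. Stretched replicate 4 stood apart for SLA-DRA at 8.96, with the nearest array at 5.69, B2M H at 2.63, with the nearest array at 3.49, CD74 at 10.12, with the nearest array at 8.49 and CD81 at 9.47, with the nearest array at 8.36. Stretched replicate 4 also stood apart for SLA-DMA B at 4.76, with the nearest array at 2.61.

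Stretched replicate 5 stood apart for SLA-6 B at 3.2, with the nearest array at 3.08. Static replicate 1 with agents stood apart for CD55 B at 3.13, with the nearest array at 3.93 and CD82 B at 3.89, with the nearest array at 3.31. Static replicate 2 with agents stood apart for SLA-DMA B at 5.41, with the nearest array at 2.62, SLA-DMB at 5.87, with the nearest array at 3.38 and TAP1 B at 3.32, with the nearest array at 2.23. Static replicate 4 with agents stood apart for CD151 at 8.35, with the nearest array at 8.10. Static replicate 5 with agents stood apart for B2M I at 2.98, with the nearest array at 2.62. Static replicate 6 with agents stood apart for SLA-6 B at 4.04, with the nearest array at 3.28. Static replicate 2 stood apart for CD14 B at 3.87, with the nearest array at 2.60, CD46 A at 11.71, with the nearest array at 11.38, SLA-DMA B at 6.12, with the nearest array at 3.35 and SLA-DOA at 3.91, with the nearest array at 2.31. Static replicate 2 also stood apart for TAP1 C at 1.83, with the nearest array at 1.53. Static replicate 5 stood apart for CD46 C at 7.47, with the nearest array at 8.06. Class II genes of stretched replicate 4, static replicate 2 with agents and static replicate 2 recur in this list, and these arrays had the highest means of their groups over the 6 brighter class II and CD74 probe sets.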

How the results depend on the processing

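The counts of called members moved most with the covariate for RNA intactness. Against 47 members called without agents and 38 with agents, the 3′ to 5′ measure as covariate left 21 and 9, of which 16 and 6 were among the members called without it. Because this difference and stretch almost coincide, such a fit has little to separate them with. Centring on brighter probe sets gave 58 and 61, a fit of only the groups compared 30 and 43, and array weights 50 and 50. In 2 settings fewer than 98 members were counted, so their counts are smaller for that reason too. Leaving out dim probe sets gave 33 and 34, and 1 probe set per symbol 27 and 22 of 56. Quantile normalization gave 38 and 30, trended and robust variances 53 and 44, and leaving out the 3 wide arrays, chosen after seeing the data, 42 and 36. Leaving out single arrays gave 34 to 50 and 32 to 41. The share of all probe sets called was not counted for the alternatives, here or for the agents and the interaction. For the agents in stretched tissue array weights called 14, leaving out the wide arrays 2, and single arrays 0 to 4. For the agents in static tissue single arrays gave 0 to 1, and for the interaction array weights called 9 and single arrays 0 to 0. Of the named members called, 12 of 38 without agents and 5 of 33 with agents kept the call in all alternatives, and 27 and 26 kept it without every single array. Among the named calls, a fit of only the groups compared ended calls without agents of B2M D, B2M H, CD209, CD34, CD4 A, CD4 B, CD40 C, CD47 B, SLA-DRA, SLA-DRB1 B and with agents of CD40 A (adjusted p = 0.0513 to 0.140). Quantile normalization ended calls without agents of CD4 A, CD4 B, CD40 C, CD55 E, SLA-DMA A, SLA-DRA, SLA-DRB1 B and with agents of CD40 A, CD40 C, CD46 C, CD53 A, CD55 D, SLA-8 A, SLA-DRB1 C (adjusted p = 0.0511 to 0.516). Likewise centring ended calls without agents of B2M C, B2M H, SLA-2 and with agents of B2M C, CD40 A, CD63, SLA-8 A (adjusted p = 0.0543 to 0.150). Array weights ended calls without agents of B2M H, CD47 C, CD59 A, SLA-DMA A, SLA-DRB1 B (adjusted p = 0.0578 to 0.252). Leaving out the 3 wide arrays ended calls without agents of CD209, CD34, CD4 A, SLA-DRA, SLA-DRB1 B and with agents of B2M C, CD40 A, CD40 C, SLA-DRB1 C (adjusted p = 0.0509 to 0.178). The cause of these moves was not tested beyond what each alternative leaves out.

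Replicate numbers were not taken to pair the samples, since no comparison had every same-numbered pair deviating together at r over 0.1: 3, 1, 4 and 5 of 6 pairs did so for stretch without agents, for stretch with agents, and for the agents in stretched and in static tissue. In static tissue the pairs reached r = 0.59 and 3 of 6 arrays matched best with their own number, a hint from the data and not from the design. A fit with the replicate block called 45 and 40 members for stretch, of the named calls lost B2M D without agents (adjusted p = 0.0560), and called 0 for the agents and for the interaction.

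With probe sets lettered as before, the sign turned in 85 alternatives of single probe sets, 4 of them for called changes, of CD40 A (with agents), CD40 C (both comparisons) and the dim SLA-DRB1 C (with agents), all with the covariate. In 2 the turned value was itself called. With RNA intactness as a covariate the sign turned for stretch without agents of CD40 C 0.25, B2M A 0.0622, CD40 A 0.59, CD40 B 1.42, CD74 0.17, SLA-6 A 0.43, SLA-DMA B 0.0102, SLA-DRB1 C -0.0054, and for stretch with agents of CD40 C 1.03, CD40 A 0.62, B2M A 0.04, CD4 B -0.0029, CD40 B 1.78, CD74 0.81, SLA-6 A 0.51, SLA-DRA 0.71, SLA-DRB1 B -0.0875, SLA-DRB1 C -0.0197, SLA-DRB1 A 0.61. Under quantile normalization the sign turned for stretch without agents of B2M A 0.0115, CD163 A 0.0807, CD46 B 0.0371, SLA-6 A 0.0845, and for stretch with agents of B2M D 0.0843, CD46 B 0.0757, SLA-6 A 0.0034, SLA-DMA A 0.12, SLA-DRB1 B -0.015, TAP1 C -0.005. On centring the sign turned for stretch without agents of B2M A 0.19, CD163 B 0.15, CD163 A 0.22, CD46 B 0.0426, SLA-6 A 0.14, SLA-6 B 0.12, SLA-DMB 0.16, SLA-DOA 0.0023, and for stretch with agents of B2M H 0.16, B2M A 0.13, B2M D 0.0413, CD46 B 0.0418, CD47 C 0.037, SLA-6 A 0.0225, SLA-DMA A 0.20. With array weights the sign turned for stretch without agents of CD14 A 0.17, CD163 B 0.0048, CD163 A 0.87, CD59 B -0.0249, SLA-DMA B 0.0716, SLA-DMB 0.18, and for stretch with agents of SLA-DRB1 A 0.18. Without the 3 wide arrays the sign turned for stretch without agents of SLA-6 A 0.0242, and for stretch with agents of SLA-6 A 0.0827, SLA-DRB1 A 1e-04, TAP1 C -0.0028. Leaving out single arrays turned the sign of 11 changes, with ranges for stretch without agents of B2M A -0.0787 to 0.0199, CD163 B -0.23 to 0.21, CD163 A -0.45 to 0.47, SLA-6 A -0.16 to 0.0242, SLA-DMA B -0.75 to 0.20, SLA-DMB -0.57 to 0.50, SLA-DOA -0.29 to 0.051, and for stretch with agents of B2M H -0.14 to 0.0365, SLA-DMA B -0.0943 to 0.74, SLA-DMA A -0.25 to 0.26, SLA-DRB1 A -0.57 to 0.11. Values close to the dim limit carry little signal over background, which limits the calls of lymphocyte and CD1 antigens.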
